A study of Homo sapiens with 6 samples.

Results

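The transcripts described here were those of 35 genes of sterol and fatty acid synthesis that are known targets of the sterol regulatory element binding proteins (SREBPs), together with the genes of the SREBPs themselves. They were taken from a fixed list of symbols, matched to Ensembl gene IDs, and made up 35 of the 60676 gene IDs in the count tables. RNA was sequenced from HEK293A cells, an adherent derivative of the HEK293 human embryonic kidney line. The cells had 20 nM VT01454 for 2 h (3 libraries) or the DMSO vehicle (3 libraries). VT01454 is known here by its code name alone, and the series sets it in work on phosphatidylinositol transfer proteins, phosphoinositides and the Hippo pathway. All 6 libraries came from the same cell line, with no genotype other than that of the line given. VT01454 was used at a single dose and time, and the treatment label of the vehicle libraries names DMSO without a time. Nothing in the labels states that libraries of 1 group came from different cultures, and the p-values below reflect the spread between libraries alone, which may be technical.

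SREBPs are made as precursors in the membrane of the endoplasmic reticulum, where they are bound by the escort protein SCAP. When membrane sterol is high, INSIG proteins hold SCAP and its cargo in place. When sterol is low, SCAP carries the precursor to the Golgi, where proteases release a fragment that enters the nucleus and activates transcription, commonly beside the factors NF-Y and SP1. The product of SREBF2 acts mainly on genes of cholesterol synthesis, and that of SREBF1 mainly on genes of fatty acid synthesis.

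None of the 35 transcripts passed the test in either direction after 2 h with VT01454, and most differed little from vehicle. In the mevalonate pathway, which makes the isoprenoid units of sterols, 0 of 6 genes passed, with a median log2 fold change of −0.088. Of the genes of fatty acid synthesis, elongation and desaturation, 0 of 5 passed, with a median of 0.081. The lowest p among the 35 belonged to MSMO1, a sterol demethylation enzyme, at 50.6 ± 2.77 CPM with VT01454 against 62.2 ± 6.08 CPM with vehicle (SD, n = 3 each, edgeR adjusted p = 0.0933). CPM stands for counts scaled to a library size of 1e+06, after edgeR's TMM factors.

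The stretch before the start of 6 of these genes is shown because each holds letters that NF-Y or SREBPs are known to bind. SREBF2 and MID1IP1 were the members with a match to the sterol regulatory element core, MVK and MSMO1 had the lowest p-values, and INSIG1 and SCD are classical targets. Each line gives 250 bases upstream of the RefSeq transcription start on GRCh38.p14, 5′ to 3′ on the strand of the gene, and capitals mark matches on either strand to TCACNCCAC (sterol regulatory element core, N being any base) or CCAAT (NF-Y box).
SREBF2 (chr22:41832855-41833104, plus strand): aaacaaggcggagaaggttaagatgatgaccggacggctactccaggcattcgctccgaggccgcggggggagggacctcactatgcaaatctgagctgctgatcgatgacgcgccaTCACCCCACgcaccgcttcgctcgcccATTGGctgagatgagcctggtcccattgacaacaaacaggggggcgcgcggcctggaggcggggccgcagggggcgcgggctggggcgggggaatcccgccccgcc
MID1IP1 (chrX:38801209-38801458, plus strand): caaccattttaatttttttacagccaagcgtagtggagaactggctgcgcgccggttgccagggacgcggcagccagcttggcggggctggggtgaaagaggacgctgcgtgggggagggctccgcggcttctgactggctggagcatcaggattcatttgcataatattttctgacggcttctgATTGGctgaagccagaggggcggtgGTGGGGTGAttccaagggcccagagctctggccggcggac
MVK (chr12:109573544-109573793, plus strand): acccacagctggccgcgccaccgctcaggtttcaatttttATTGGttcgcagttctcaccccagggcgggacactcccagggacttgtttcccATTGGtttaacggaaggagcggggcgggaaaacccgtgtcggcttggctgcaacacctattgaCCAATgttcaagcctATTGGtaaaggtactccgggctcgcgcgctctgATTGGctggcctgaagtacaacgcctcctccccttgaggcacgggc
MSMO1 (chr4:165327419-165327668, plus strand): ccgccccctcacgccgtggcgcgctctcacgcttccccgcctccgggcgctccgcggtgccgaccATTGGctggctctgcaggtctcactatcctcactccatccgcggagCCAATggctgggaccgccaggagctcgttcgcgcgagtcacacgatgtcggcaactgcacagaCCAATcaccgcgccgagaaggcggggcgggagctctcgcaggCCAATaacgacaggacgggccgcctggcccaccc
INSIG1 (chr7:155297628-155297877, plus strand): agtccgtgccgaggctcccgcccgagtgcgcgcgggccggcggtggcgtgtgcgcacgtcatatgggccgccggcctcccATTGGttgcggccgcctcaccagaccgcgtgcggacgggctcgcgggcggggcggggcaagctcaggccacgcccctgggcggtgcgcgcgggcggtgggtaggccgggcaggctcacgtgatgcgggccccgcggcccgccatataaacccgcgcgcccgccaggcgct
SCD (chr10:100346983-100347232, plus strand): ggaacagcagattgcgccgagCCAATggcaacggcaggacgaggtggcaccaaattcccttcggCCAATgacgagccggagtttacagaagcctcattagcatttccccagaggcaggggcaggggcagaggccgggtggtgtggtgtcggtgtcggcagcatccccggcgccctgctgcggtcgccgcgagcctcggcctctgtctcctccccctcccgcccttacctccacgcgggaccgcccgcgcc

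The MVK window held 5 NF-Y boxes and the MSMO1 window 4, while 2 were found for SCD and 1 each for INSIG1, SREBF2 and MID1IP1. NSDHL, whose log2 fold change was −0.053 (edgeR adjusted p = 0.753), had 5 matches, of which those at 113 and 110 bases overlap in CCAATTGG. Overlapping matches were counted separately. The sterol element core lay 133 bases before the start of SREBF2, with its NF-Y box at 106 bases, and 40 bases before the start of MID1IP1, with its NF-Y box at 65 bases. The RefSeq promoter table matched 30 of the 35 members, and FDFT1, SQLE, ACAT2, FASN and PNPLA3 were not matched. A gene with several listed starts was counted when any of its windows held the motif, which was possible for 8 members. NF-Y boxes stood in 23 of 30 members (76.7%) and in 41.5% of the 11223 tested genes in the table. At least 2 boxes stood in 14 of 30 members (46.7%) and in 15.2% of tested genes. The sterol element core was found in 2 of 30 members (6.67%) and in 1.11% of tested genes. GGGCGG, the SP1 box, was present in 29 of 30 members (96.7%) and 74.8% of tested genes, and the E-box CACGTG in 2 of 30 (6.67%) and 11.1%. Both strands were searched, and none of these motifs contains another. By role, an NF-Y box stood before 5 of 6 mevalonate pathway genes, 8 of 9 genes from squalene to cholesterol and 1 of 4 genes of fatty acid synthesis, elongation and desaturation, the last being SCD. These are matches of letters in a window and not measured binding. The RefSeq starts of the printed windows differ from the gene starts of GENCODE 29, from which the gene coordinates below were taken. The MVK window lies inside the gene span of MVK, and the other printed windows reach past the GENCODE start of their gene.

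Libraries held 19126039 to 28880374 counts, and single members 62 to 46671 counts. Every pair of libraries differed beyond sampling noise. The chi-square over its degrees of freedom was 2.05 to 2.79 between VT01454 libraries and 7.81 to 19.9 between vehicle libraries. Between a VT01454 and a vehicle library it was 7.53 to 8.49 with vehicle libraries 1 and 3, and 16.1 to 18.1 with vehicle library 2. Of the markers of HEK293-type cells, KRT8 stood at 895 to 962 CPM with VT01454 and 898 to 1032 CPM with vehicle, and NEFL at 678 to 688 CPM with VT01454 and 647 to 709.9 CPM with vehicle. The kidney lineage genes EYA1 and SALL1 lay between 15.1 and 16.6 CPM with VT01454 and between 10.7 and 14.0 CPM with vehicle, so their groups did not overlap, although neither passed (edgeR adjusted p = 0.239 for EYA1 and 0.117 for SALL1). NEFM had 4, 93 and 93 counts with VT01454 and 87, 126 and 10 counts with vehicle, so VT01454 library 1 and vehicle library 3 stood far below the others. PAX2 did not exceed 0.708 CPM and LHX1 did not exceed 3 counts. The leukocyte genes PTPRC and CD3E and the hepatocyte gene APOB were at 0 in every library, and no marker of any list passed the test. In bulk RNA, fewer cells of a type and less RNA per cell cannot be told apart.

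All 35 members passed the filter on low counts and were among the 15577 genes tested. Their levels, set per length as RPKM (CPM per kilobase of exon, mean over 6 libraries), had a median of 16.9 RPKM, against 3.93 RPKM over all tested genes. FASN, the gene of fatty acid synthase, was highest at 164 ± 12.2 RPKM (SD, n = 6), in the 98.8th percentile of tested genes. SCD, the stearoyl-CoA desaturase gene, followed at 124 ± 6.64 RPKM and ACLY, the ATP citrate lyase gene, at 115 ± 4.50 RPKM. The SD ranges of SCD and ACLY overlapped, while that of FASN lay above both. The next were DHCR7 at 49.6 ± 1.01, SQLE at 43.0 ± 1.03 and HMGCS1 at 41.0 ± 2.11 RPKM, enzymes of sterol synthesis. Of these, the ranges of SQLE and HMGCS1 overlapped and that of DHCR7 stood apart. The lowest were CYP51A1 at 1.40 ± 0.215, PNPLA3 at 1.04 ± 0.207 and ACACA at 0.657 ± 0.28 RPKM, with neighbouring ranges that overlapped. The place of CYP51A1 in this order is uncertain, because 79.4% of its exonic length is shared with another gene on the same strand. ACACA encodes the cytosolic acetyl-CoA carboxylase, which feeds fatty acid synthase, and its level was in the 20.4th percentile of tested genes.

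**Figure D1:**
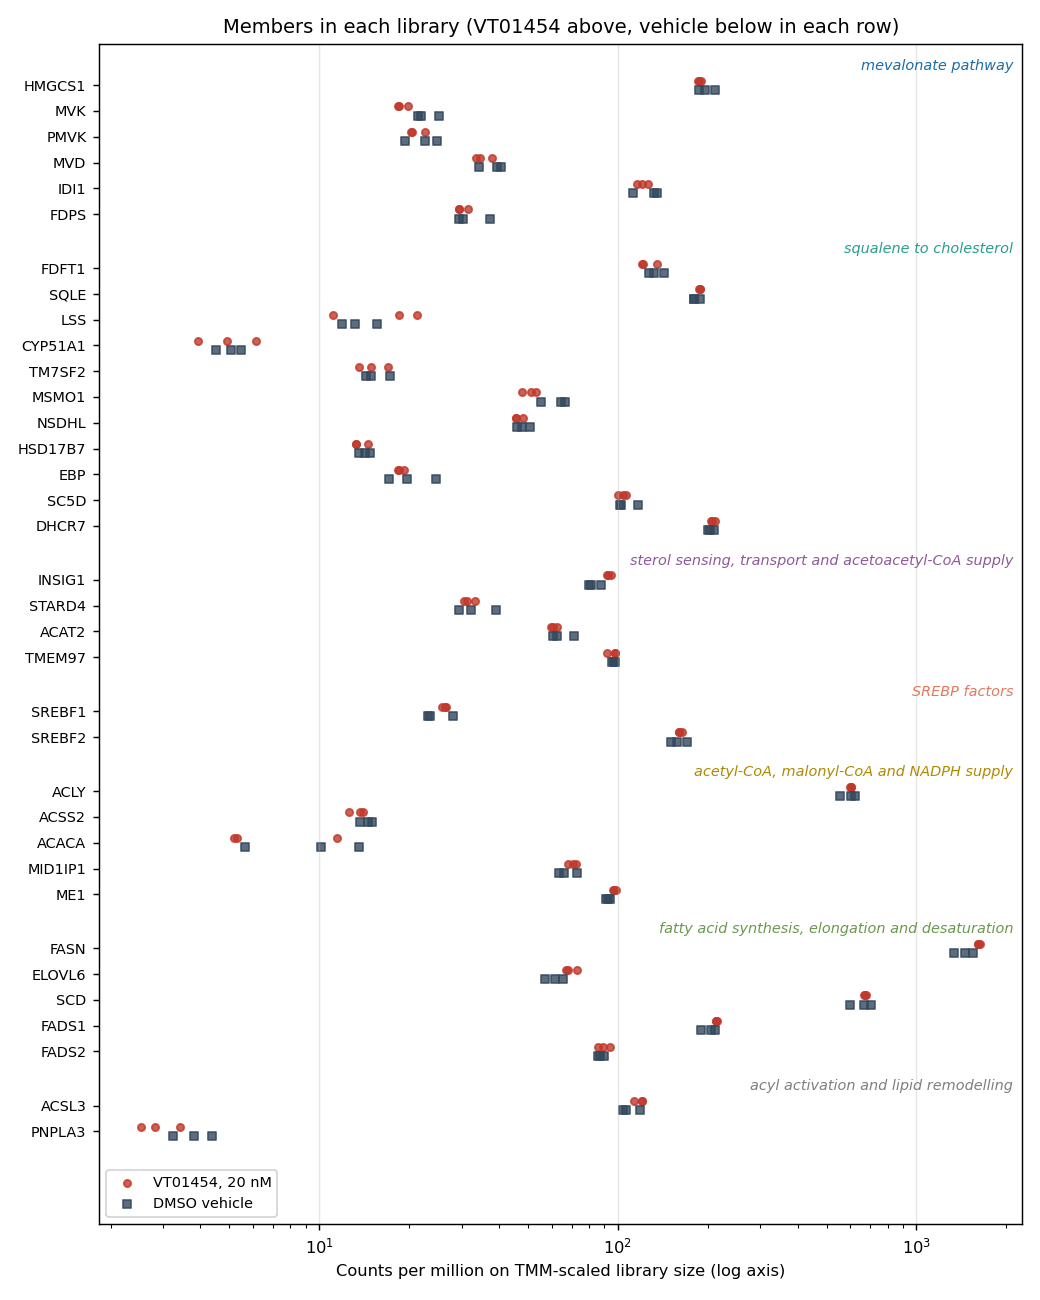
CPM (log axis) of the 35 members in each library, by role, with the 3 VT01454 libraries as red circles and the 3 vehicle libraries as dark squares below them. FASN lay between 1339.5 and 1638 CPM, with every VT01454 library above every vehicle library, while the groups of most other members overlapped.

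Against vehicle, 0 of 35 members were higher and 0 were lower by edgeR's two-sided quasi-likelihood F-test, with an adjusted p (Benjamini-Hochberg over all genes tested) below 0.05 as the threshold. Over all 15577 tested genes 1.27% were called higher and 0.616% lower, 1.89% in all. At an unadjusted p below 0.05 there were 5 members, 14.3% of them, against 14.4% of all tested genes. These were MVK, MSMO1, INSIG1, FASN and ELOVL6. DESeq2 called 1 member lower, MSMO1, with 2.55% of all tested genes called in either direction, and limma-voom called 0, with 1.55%. Of the log2 fold changes, 16 were above 0, as were 48.4% of those of all tested genes, and 19 below (DHCR7, SREBF2 and CYP51A1 moved from above to below 0 when libraries were scaled by size alone), with a median of −0.027 against −0.0073 over all tested genes. The median size of the log2 fold change was 0.076 for members and 0.11 for all tested genes, and 27 of 35 members (77.1%) lay within 10% of vehicle, against 59.4% of all tested genes. Every VT01454 library lay above every vehicle library for 5 members, and below for 2, so the groups did not overlap for 7 of 35 members, and for 21.1% of all tested genes (11.3% above, 9.84% below).

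The intervals around the fold changes were narrow for most members. The 95% interval of the log2 fold change lay within a 1.5-fold change in both directions for 32 of 35 members. The 3 whose interval reached further were LSS, ACACA and PNPLA3. A p that missed the threshold does not show that a transcript was equal in the groups.

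**Figure D2:**
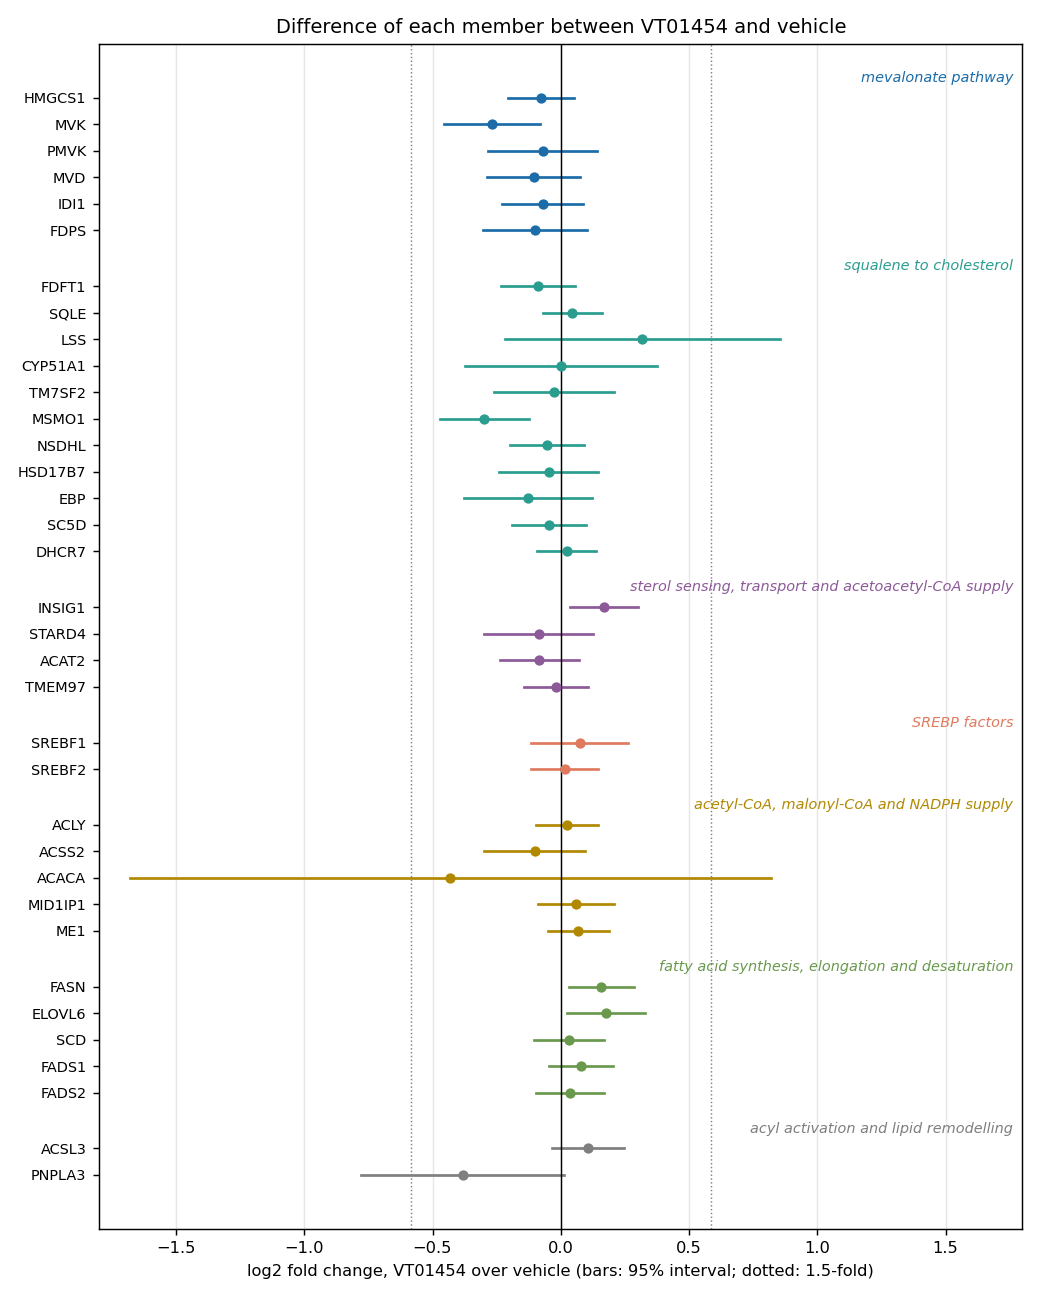
The log2 fold change of each member, VT01454 over vehicle, with its 95% interval from edgeR as a bar and coloured by role, and dotted lines at a 1.5-fold change. The intervals of 32 of 35 members stay inside the dotted lines, and those of LSS, ACACA and PNPLA3 reach beyond them.

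In the mevalonate pathway, 0 of 6 genes passed, and all 6 log2 fold changes were below 0 with a median of −0.088, although those of PMVK and FDPS were above 0 without vehicle library 2. MVK (chromosome 12, 109573255 to 109598117, hg38) encodes mevalonate kinase, and had 18.3, 19.8 and 18.6 CPM with VT01454, against 21.9, 25.1 and 21.4 CPM with vehicle. The groups did not overlap, and vehicle library 2 was the highest. MVK was 1.205-fold lower with VT01454, at a log2 fold change of −0.27 ± 0.087 (SE, 95% interval −0.46 to −0.080), with an edgeR adjusted p of 0.171. It passed without vehicle library 3 (edgeR adjusted p = 0.0359), a fit in which 11.4% of all tested genes passed. MVK shares 306 exonic bases with MMAB on the opposite strand, whose level was 40.2 CPM with VT01454 and 46.9 CPM with vehicle, and the strand setting of the counting is not given in the sources used here.

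HMGCS1, which encodes the cytosolic synthase that makes HMG-CoA, had 185, 188 and 190.2 CPM with VT01454, against 196, 186 and 211 CPM with vehicle. Its groups overlapped, with vehicle library 3 highest. The log2 fold change of HMGCS1 was −0.076 ± 0.060 (SE, edgeR adjusted p = 0.592). PMVK, MVD, IDI1 and FDPS encode the later steps to farnesyl diphosphate, and their log2 fold changes lay from −0.11 for MVD to −0.070 for PMVK and IDI1, with FDPS at −0.099. Their mean levels were 21.1, 35.3, 121 and 30.1 CPM with VT01454, in the order PMVK, MVD, IDI1 and FDPS, against 22.2, 38.1, 127 and 32.3 CPM with vehicle. Adjusted p-values of these 4 ran from 0.595 to 0.78 (edgeR).

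From squalene to cholesterol, 0 of 11 genes passed, with 4 log2 fold changes above 0 and 7 below and a median of −0.047, DHCR7 and CYP51A1 being below 0 with scaling by library size alone. MSMO1 (chromosome 4, 165327623 to 165343160, hg38) encodes the methylsterol monooxygenase that removes methyl groups from the sterol nucleus. It had 53.0, 47.6 and 51.1 CPM with VT01454, against 55.2, 64.6 and 66.7 CPM with vehicle. The groups did not overlap, and VT01454 library 1 and vehicle library 1 stood closest. MSMO1 was 1.23-fold lower with VT01454, with a log2 fold change of −0.298 ± 0.080 (SE, 95% interval −0.47 to −0.13, edgeR adjusted p = 0.0933). Across all 13 alternatives its adjusted p ran from 0.0117 to 0.427.

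SQLE encodes squalene epoxidase, a rate-controlling enzyme of the pathway. It had 188, 189 and 187 CPM with VT01454, against 179, 179.9 and 188 CPM with vehicle, so vehicle library 3 lay within the range of VT01454. Its log2 fold change was 0.045 ± 0.053 (SE, 95% interval −0.069 to 0.16, edgeR adjusted p = 0.729). FDFT1, the squalene synthase gene, had 135, 121 and 122 CPM with VT01454, against 132, 142 and 127 CPM with vehicle, and the groups overlapped. Its log2 fold change was −0.088 ± 0.066 (SE, edgeR adjusted p = 0.572). DHCR7, which reduces a double bond of the sterol ring, stood at 208 ± 3.35 CPM with VT01454 and 205 ± 5.04 CPM with vehicle (SD, n = 3 each), and its log2 fold change was 0.023.

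LSS, the lanosterol synthase gene, was singled out after its values were seen. It had 18.4, 21.3 and 11.2 CPM with VT01454, against 15.7, 11.9 and 13.2 CPM with vehicle. VT01454 libraries 1 and 2 were the highest of all and VT01454 library 3 the lowest. Its log2 fold change of 0.32 ± 0.23 (SE, 95% interval −0.22 to 0.86, edgeR adjusted p = 0.574) had a wide error, and ran from 0.13 without VT01454 library 2 to 0.55 without VT01454 library 3 (edgeR adjusted p = 0.116). The remaining members of this group were TM7SF2 and NSDHL, which act on sterol ring intermediates, HSD17B7, EBP and SC5D, which act later, and CYP51A1, the lanosterol demethylase gene. Their log2 fold changes were −0.027 for TM7SF2, −0.053 for NSDHL, −0.048 for HSD17B7, −0.13 for EBP and −0.047 for SC5D, with edgeR adjusted p-values from 0.644 to 0.93. Their mean levels were 15.2, 46.5, 13.7, 18.7 and 103 CPM with VT01454 in the same order, against 15.5, 48.3, 14.2, 20.5 and 107 CPM with vehicle. CYP51A1 had a mean of 4.99 CPM with VT01454 and 5.01 CPM with vehicle (log2 fold change 0.00073 ± 0.17 SE). The overlapping gene on the same strand, ENSG00000285772, had 0 counts in all libraries, and the count of CYP51A1 is uncertain.

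Of the genes of sterol sensing, transport and acetoacetyl-CoA supply, 0 of 4 passed. INSIG1 (chromosome 7, 155297776 to 155310235, hg38) encodes the sterol-dependent anchor of SCAP and is itself a sensitive SREBP target. It had 93.0, 94.8 and 92.3 CPM with VT01454, against 81.5, 88.0 and 79.8 CPM with vehicle. Every VT01454 library was above every vehicle library. INSIG1 was 1.123-fold higher with VT01454, with a log2 fold change of 0.168 ± 0.061 (SE, 95% interval 0.036 to 0.3, edgeR adjusted p = 0.234). It passed without vehicle library 2 (edgeR adjusted p = 0.0397), where 2.6% of all tested genes passed. ACAT2, the cytosolic acetoacetyl-CoA thiolase gene, had 59.7, 60.9 and 62.5 CPM with VT01454, against 60.5, 71.1 and 62.3 CPM with vehicle. Its groups overlapped, with vehicle library 2 standing above the rest, and its log2 fold change was −0.083 ± 0.072 (SE, edgeR adjusted p = 0.628). ACAT2 shares 9.2% of its exonic length with TCP1 on the opposite strand, a gene at 741 CPM with VT01454 and 734 CPM with vehicle. STARD4, a sterol transfer protein gene, averaged 31.7 CPM with VT01454 and 33.5 CPM with vehicle (log2 fold change −0.087), and TMEM97, an endoplasmic reticulum protein gene tied to cholesterol handling, averaged 95.8 CPM with VT01454 and 97.0 CPM with vehicle (−0.018).

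Of the SREBP genes, 0 of 2 passed. SREBF1 (chromosome 17, 17810399 to 17837002, hg38) had 26.4, 26.5 and 25.7 CPM with VT01454, against 23.5, 28.1 and 23.1 CPM with vehicle. SREBF2 (chromosome 22, 41833079 to 41907308, hg38) had 161, 161 and 163 CPM with VT01454, against 171, 151 and 158 CPM with vehicle. In both genes the VT01454 libraries lay inside the range of the vehicle libraries. The log2 fold change was 0.074 ± 0.087 (SE, edgeR adjusted p = 0.734) for SREBF1 and 0.015 ± 0.060 (SE, 95% interval −0.12 to 0.14, edgeR adjusted p = 0.931) for SREBF2. Per length, SREBF2 stood at 21.3 RPKM and SREBF1 at 3.18 RPKM. The counts are of whole genes and do not separate the isoforms of SREBF1. SREBF1 shares 556 exonic bases with RAI1 on the opposite strand, a gene at 71.5 CPM with VT01454 and 63 CPM with vehicle.

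Among the genes that supply acetyl-CoA, malonyl-CoA and NADPH, 0 of 5 passed. ME1, which encodes the cytosolic malic enzyme that makes NADPH, had 97.0, 98.2 and 96.1 CPM with VT01454, against 92.5, 91.4 and 93.8 CPM with vehicle. The groups did not overlap, though they differed by little, a log2 fold change of 0.069 ± 0.056 (SE, edgeR adjusted p = 0.602). ACSS2, which makes acetyl-CoA from acetate, had 14.0, 12.5 and 13.7 CPM with VT01454, against 14.5, 15.0 and 13.7 CPM with vehicle, with groups that overlapped. Its log2 fold change was −0.10 ± 0.091 (SE, edgeR adjusted p = 0.641). ACLY, which makes cytosolic acetyl-CoA from citrate, averaged 603 ± 4.17 CPM with VT01454 and 592 ± 35.8 CPM with vehicle (SD, n = 3 each), and MID1IP1, a regulator of acetyl-CoA carboxylase, averaged 70.2 ± 2.22 CPM with VT01454 and 67.5 ± 5.02 CPM with vehicle.

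ACACA, singled out after its values were seen, had 5.19, 5.30 and 11.5 CPM with VT01454, against 13.5, 5.64 and 10.2 CPM with vehicle. The low libraries were VT01454 libraries 1 and 2 and vehicle library 2, so the split ran across the groups. These values rested on 148, 132 and 281 counts with VT01454, and 287, 108 and 275 counts with vehicle. The log2 fold change was −0.43 ± 0.48 (SE, 95% interval −1.68 to 0.82, edgeR adjusted p = 0.734), the widest interval among the members. Across alternatives it ran from −0.90 to −0.13.

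Of the genes of fatty acid synthesis, elongation and desaturation, 0 of 5 passed. All 5 log2 fold changes were above 0, with a median of 0.081, although that of SCD was below 0 without vehicle library 2. FASN (chromosome 17, 82078333 to 82098332, hg38) had 1638, 1604 and 1606 CPM with VT01454, against 1549.9, 1339.5 and 1454 CPM with vehicle. The groups did not overlap, and the vehicle libraries spread more widely. FASN was 1.116-fold higher with VT01454, with a log2 fold change of 0.158 ± 0.058 (SE, 95% interval 0.033 to 0.28, edgeR adjusted p = 0.237), and 0.11 without vehicle library 2.

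ELOVL6 (chromosome 4, 110045846 to 110199199, hg38), which encodes the elongase that extends palmitate, had 67.1, 73.1 and 68.3 CPM with VT01454, against 61.6, 57.0 and 65.7 CPM with vehicle. All VT01454 libraries were above all vehicle libraries. ELOVL6 was 1.13-fold higher with VT01454 (log2 fold change 0.176 ± 0.070 SE, 95% interval 0.024 to 0.33, edgeR adjusted p = 0.275). It passed without vehicle library 3 (edgeR adjusted p = 0.0346), where 11.4% of all tested genes passed. SCD (chromosome 10, 100347124 to 100364834, hg38) makes monounsaturated fatty acids and had 671, 667 and 676 CPM with VT01454, against 669, 597 and 704 CPM with vehicle. The VT01454 libraries lay inside the vehicle range, and the log2 fold change was 0.032 ± 0.062 (SE, edgeR adjusted p = 0.843). FADS1 and FADS2, the desaturase genes of polyunsaturated fatty acids, overlap on opposite strands by 490 exonic bases. FADS1 averaged 214 ± 0.661 CPM with VT01454 and 202 ± 11.5 CPM with vehicle (SD, n = 3 each), without overlap of the groups (log2 fold change 0.081, edgeR adjusted p = 0.552). FADS2 averaged 89.6 CPM with VT01454 and 87.4 CPM with vehicle (log2 fold change 0.036).

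Of the pair placed under acyl activation and lipid remodelling, 0 of 2 passed. ACSL3, which activates fatty acids for lipid synthesis, had 113, 121 and 120.1 CPM with VT01454, against 104, 107 and 118 CPM with vehicle. The groups overlapped through vehicle library 3, and the log2 fold change was 0.11 ± 0.065 (SE, edgeR adjusted p = 0.485). PNPLA3, a lipid droplet protein gene, had 3.40, 2.53 and 2.82 CPM with VT01454, against 4.39, 3.24 and 3.80 CPM with vehicle. Vehicle library 2 lay within the VT01454 range, and the log2 fold change was −0.38 ± 0.18 (SE, 95% interval −0.78 to 0.014, edgeR adjusted p = 0.366). PNPLA3 shares 148 exonic bases with SAMM50 on the same strand, a gene at 73.4 CPM with VT01454 and 77.7 CPM with vehicle.

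The vehicle libraries differed among themselves more than the VT01454 libraries did. The SD of log2 CPM over 3 libraries had a median over members of 0.054 with VT01454 and 0.11 with vehicle, against 0.073 with VT01454 and 0.14 with vehicle over all tested genes. The SD was wider with vehicle for 26 of 35 members, 73.1% being the share over all tested genes. The median absolute deviation of members from their 6-library mean was 0.13 in vehicle library 2 and between 0.040 and 0.085 in the other 5 libraries. Over all tested genes it was 0.15 in vehicle library 2 and between 0.071 and 0.096 in the others. Without vehicle library 2, INSIG1 passed, and the log2 fold changes of SCD, ACLY, SREBF2, EBP, TM7SF2, FDPS and PMVK changed sign, none of them passing.

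**Figure D3:**
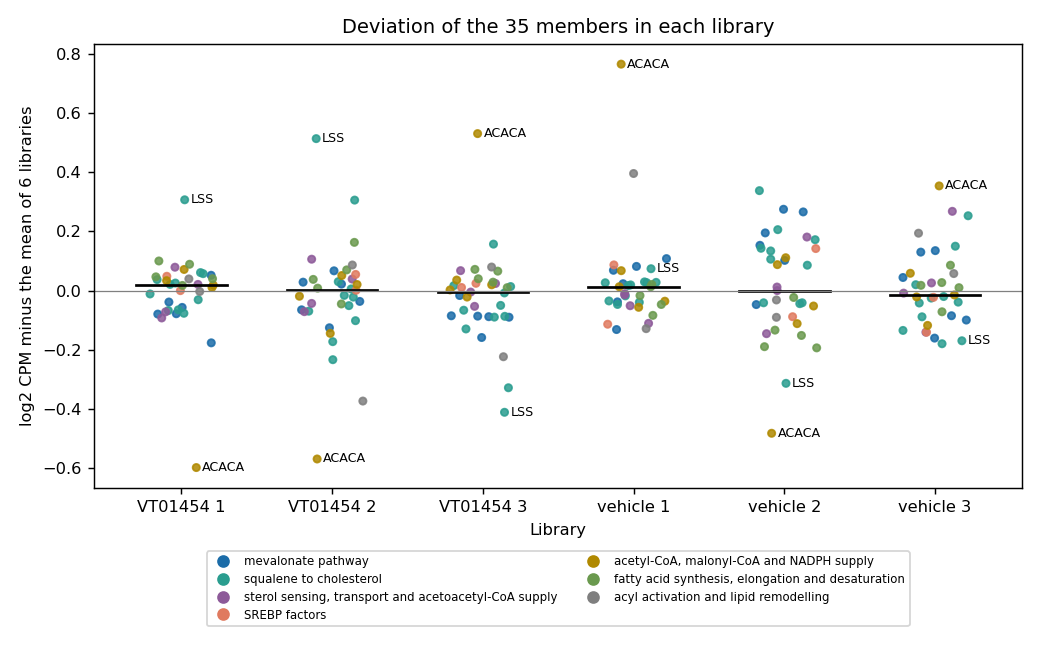
Deviation of each of the 35 members from its mean over 6 libraries, as log2 CPM, in each library, with the median as a black line and colours for roles. The median absolute deviation was largest in vehicle library 2 (0.13, and 0.15 over all tested genes). ACACA and LSS are named because they lie far from the rest in several libraries.

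Among 77 further genes of SREBP control, sterols and fatty acids, 71 were tested. Of these, 1 was higher and 0 were lower, against 1.27% and 0.616% of all tested genes. An unadjusted p below 0.05 was found for 9 of the 71, against 14.4% of all tested genes. The median log2 fold change of the 71 was −0.0031. The gene that rose was RNF145, 1 of 11 tested genes of SREBP processing. It encodes a ubiquitin ligase of the endoplasmic reticulum that is induced through the oxysterol receptor LXR and acts on SCAP in mouse liver. RNF145 had 181, 187 and 178 CPM with VT01454, against 109.8, 112 and 118 CPM with vehicle. The groups lay far apart, by more than the range within either. RNF145 was 1.605-fold higher (log2 fold change 0.683 ± 0.057 SE, edgeR adjusted p = 2.38e-05) and passed in all 13 alternatives, with an adjusted p of at most 0.00235.

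Of the LXR factors and targets, 0 of 10 tested genes passed. The lowest p there was that of MYLIP, the gene of a ubiquitin ligase induced by LXR, at 22.9, 19.1 and 22.5 CPM with VT01454, against 17.9, 16.1 and 18.7 CPM with vehicle. The groups did not overlap, and the log2 fold change was 0.29 ± 0.096 (SE, edgeR adjusted p = 0.182). MYLIP passed without vehicle library 3 (edgeR adjusted p = 0.0473), as did 11.4% of all tested genes. Of other fatty acid and glycerolipid synthesis genes, 0 of 27 tested passed. LPIN3, a phosphatidate phosphatase gene, had the lowest p of these, with 8.42, 7.59 and 7.56 CPM with VT01454, against 9.34, 9.39 and 10.4 CPM with vehicle (log2 fold change −0.31 ± 0.11 SE, edgeR adjusted p = 0.212). The 12 tested genes of other sterol and isoprenoid synthesis and the 11 of sterol uptake and trafficking also held 0 that passed, with medians of −0.031 and 0.012 on the log2 scale.

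**Figure D4:**
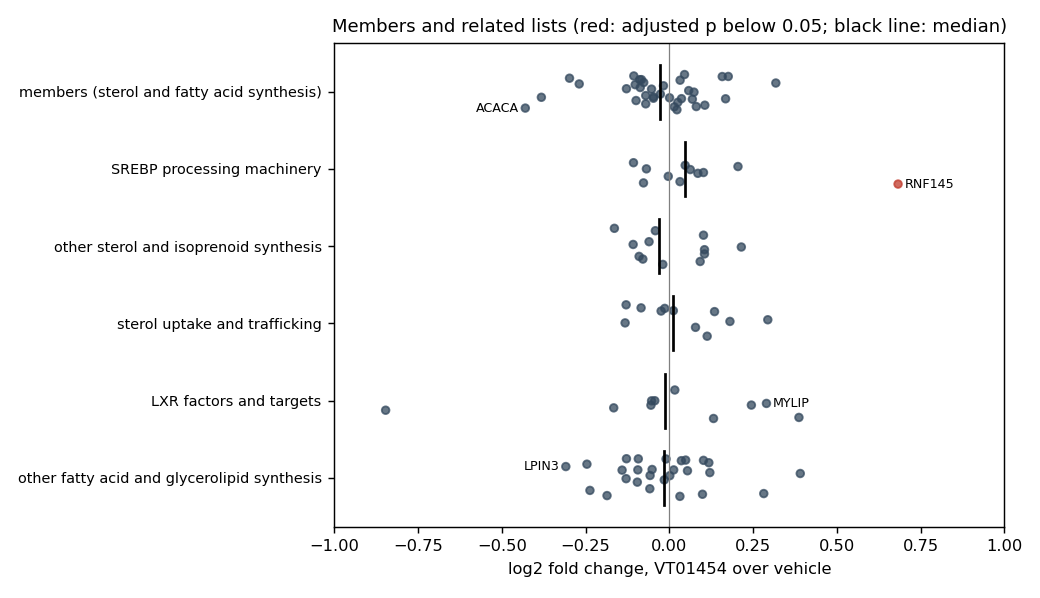
The log2 fold change, VT01454 over vehicle, of the 35 members and of the tested genes of 5 related lists, 1 point per gene, with the list median as a black line and genes at an adjusted p below 0.05 in red. RNF145 at 0.68 is the only red point, and all list medians lie close to 0.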

How the data were processed

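The cells' total RNA was extracted with RNeasy Plus, and NEBNext Ultra II served for library preparation, per the labels' protocols. HISAT2 2.2.1, HTSeq 0.9.1 and hg38 are named in the submitters' processing notes. The annotation release and the strand setting of the counting were not given in the sources used here. Raw counts of reads per Ensembl gene ID, without normalization, were deposited by the authors. Members were matched by symbol, with coordinates and exonic lengths from GENCODE 29.

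In R 4.3.3, edgeR 4.0.16 kept genes by filterByExpr, computed TMM factors and ran the robust quasi-likelihood F-test, two-sided, on VT01454 against vehicle, with Benjamini-Hochberg adjustment over 15577 genes. SE was taken as the size of the log2 fold change over the root of F. Deviations used log2(CPM + 0.1). Alternatives were DESeq2 1.42.0, limma-voom (limma 3.58.1), other scalings and filters, a replicate block, leaving out each library, and an adjusted p below 0.01. The pipeline was tested on simulated data.

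The members and lists were chosen with earlier results of these data known. Every member is named. Values per library are given for the 2 members of lowest p in each role and for INSIG1, SREBF1, SREBF2, SQLE, FASN and SCD; those of LSS and ACACA were added after their values were seen. Further pathway genes are named when they passed or had the lowest p of their list. The genes of lowest p in the lists of other sterol and isoprenoid synthesis and of sterol uptake and trafficking are not reported here.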

Additional observations from a re-analysis of the deposited data

How the results depend on the processing

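Over 13 alternatives, 450 of 455 member values stayed on their side of the threshold and 5 newly passed; 18 estimates, none of them called, changed sign. Genes changed numbered 294 (198 higher, 96 lower), 713 with no count filter (508 higher, 205 lower) and 125 at an adjusted p below 0.01 (94 higher, 31 lower). Leaving out 1 library gave 93 to 1806 (73 to 1170 higher, 20 to 636 lower), with 1806 (11.4% of tested genes) without vehicle library 3 and 414 without vehicle library 2. Members called higher ran from 0 to 1 and lower from 0 to 1 in these fits: INSIG1 without vehicle library 2, ELOVL6 and MVK without vehicle library 3. MSMO1 was the 1 member called lower by DESeq2 (adjusted p = 0.0399) and with no count filter (edgeR adjusted p = 0.0117). The median log2 fold change of members was −0.050 with library size alone, −0.013 with no count filter, and −0.044 to −0.010 without 1 library. Further pathway genes called higher were 2 by DESeq2, 4 with no count filter and 1 to 9 without 1 library, and 0 to 1 were lower. Of all tested genes, DESeq2 called 2.55% in either direction. This share was 2.29% with no count filter and 0.584% to 11.4% without 1 library. The cause of these shifts was not tested. The replicate block gave 339 calls and 0 members. Same-numbered VT01454 and vehicle libraries deviated with correlations of −0.069, 0.026 and −0.012. Those of different number had −0.045 to 0.054. Such values cannot decide whether same-numbered libraries were handled together, which the labels do not state. The further pathway counts were added as results after the data were seen. PNPLA3 had the fewest counts (62 to 103), while the SE was widest for ACACA (0.48) and LSS (0.23).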
